A study of Sus scrofa with 18 samples.

Results

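The genes described here are 10 components of the NF-κB system, the DNA-binding subunits *NFKB1*, *NFKB2*, *RELA*, *RELB* and *REL* and the regulators *NFKBIA*, *NFKBIE*, *NFKBIZ*, *TNFAIP3* and *BCL3*, out of 28210 RefSeq genes placed on the pig chromosomes. They were chosen by name, and all 10 were found by symbol on the Sscrofa11.1 assembly. The histone marks H3K4me3 and H3K27ac were profiled with an IgG control in myometrium, the smooth muscle wall of the uterus, from the mesometrial side of Yorkshire gilts. Circular muscle of pregnant gilts (GD15M_CM), longitudinal muscle of pregnant gilts (GD15M_LM) and circular muscle of cyclic gilts (CD15M_CM) were compared, all on day 15, which is the implantation period in pregnant pigs. Pregnant gilts had been naturally mated, no gilt carried a transgene or received an agent, and the age of the gilts is not given in the sources used here. The 18 libraries were 12 of the marks and 6 of IgG, 2 gilts per group, made by CUT&Tag, in which a protein A-Tn5 fusion cuts the DNA around the antibody. The endometrium was cut away from the frozen tissue before the muscle layers were parted from each other, so each sample holds whatever other cells that layer contained.

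NF-κB is a family of dimeric transcription factors that respond to cytokines, microbial products and tissue stress. RELA, RELB and REL carry an activation domain, whereas NFKB1 and NFKB2 are made as long precursors whose processed forms, p50 and p52, bind DNA without one. The IκB proteins encoded by *NFKBIA* and *NFKBIE* hold dimers in the cytoplasm until the IKK kinases mark them for degradation, *BCL3* and *NFKBIZ* encode nuclear relatives of the IκB proteins that act as cofactors, and *TNFAIP3* encodes A20, an ubiquitin-editing enzyme that ends signalling upstream of IKK. Several of these genes, among them *NFKBIA* and *TNFAIP3*, are themselves well-known targets of the pathway. In the pregnant uterus NF-κB is known for its part in inflammation and in the preparation for labor. H3K4me3 is found mainly at active promoters, and H3K27ac at active promoters and enhancers.

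Each value below belongs to 1 of 6 peak lists, 1 per mark and tissue, and each list was called on both gilts of a group together. No value per gilt is therefore held in the lists, no difference could be compared here with the variation among animals, and no test between groups was made here. The paper did test regions for differences between these groups. Between the circular muscles it found far fewer for H3K27ac than for H3K4me3, and those regions are not given here. For every gene, the window from 3 kb before to 3 kb after the gene was searched and its strongest peak, the one with the highest fold enrichment over IgG, was taken. Fold enrichments are not on a common scale across lists, so that peak is given as a percentile, its rank within its own list, with 0 for a window without a peak. A difference of at least 10 percentile points is called higher or lower, and the share of all RefSeq genes that reached it is given with the first count of each comparison. Strand was not known from the gene table, so the ends of a gene are named the low end and the high end by coordinate, and no end is named as the promoter.

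For H3K4me3 the lists of GD15M_CM, GD15M_LM and CD15M_CM held 33599, 31910 and 36331 peaks, and for H3K27ac 79877, 57010 and 82037. All triplets of values below keep that order of tissues unless they are named. The tissue label was checked with 8 smooth muscle markers, including *MYH11* and *DES*, which had peaks in every list. Their summed H3K4me3 percentiles were 621, 711 and 700, and the H3K27ac sums 675, 704 and 750. The 7 uterine epithelium markers, cells that the muscle layers should not hold, also had H3K4me3 peaks, with summed percentiles of 556, 360 and 561, and their H3K27ac sums were 530, 103.8 and 424. The 7 T and NK cell markers placed summed to 448, 398 and 380 for H3K4me3 and to 223, 129 and 149 for H3K27ac. The 8 myeloid markers summed to 502, 518 and 582 and to 581, 409 and 553, the 4 markers of all leukocytes to 283, 279 and 270 and to 158, 74.9 and 110, the 6 B cell markers to 114, 210 and 158 and to 73.9, 151 and 207, and the 6 endothelial markers to 374, 377 and 393 and to 268, 245 and 274. The B cell genes *CD79B*, *MS4A1* and *BLK* had no H3K4me3 peak in any list.

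H3K4me3 was carried by 9 of the 10 genes in every tissue, and *NFKB1* carried none within its window in any. An H3K4me3 peak was found in 73.7%, 74.6% and 75.4% of protein-coding genes. For H3K27ac, all 10 genes had a peak in GD15M_CM and 9 in each of the other two lists, against 73.9%, 73.1% and 75.8% of protein-coding genes. The 9 genes with H3K4me3 had median percentiles of 92.0, 87.0 and 89.0, where protein-coding genes with a peak had medians of 81.5, 80.2 and 82.5. Percentile 90 was reached by 5, 3 and 3 of them, a level reached by 27.8%, 26.1% and 29.9% of protein-coding genes with a peak. For H3K27ac the medians of the genes with a peak were 97.6, 92.8 and 93.1 against 88.0, 84.4 and 86.2, and 8 of 10, 6 of 9 and 8 of 9 reached percentile 90, against 44.3%, 35.4% and 40.5%.

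**Figure D1:**
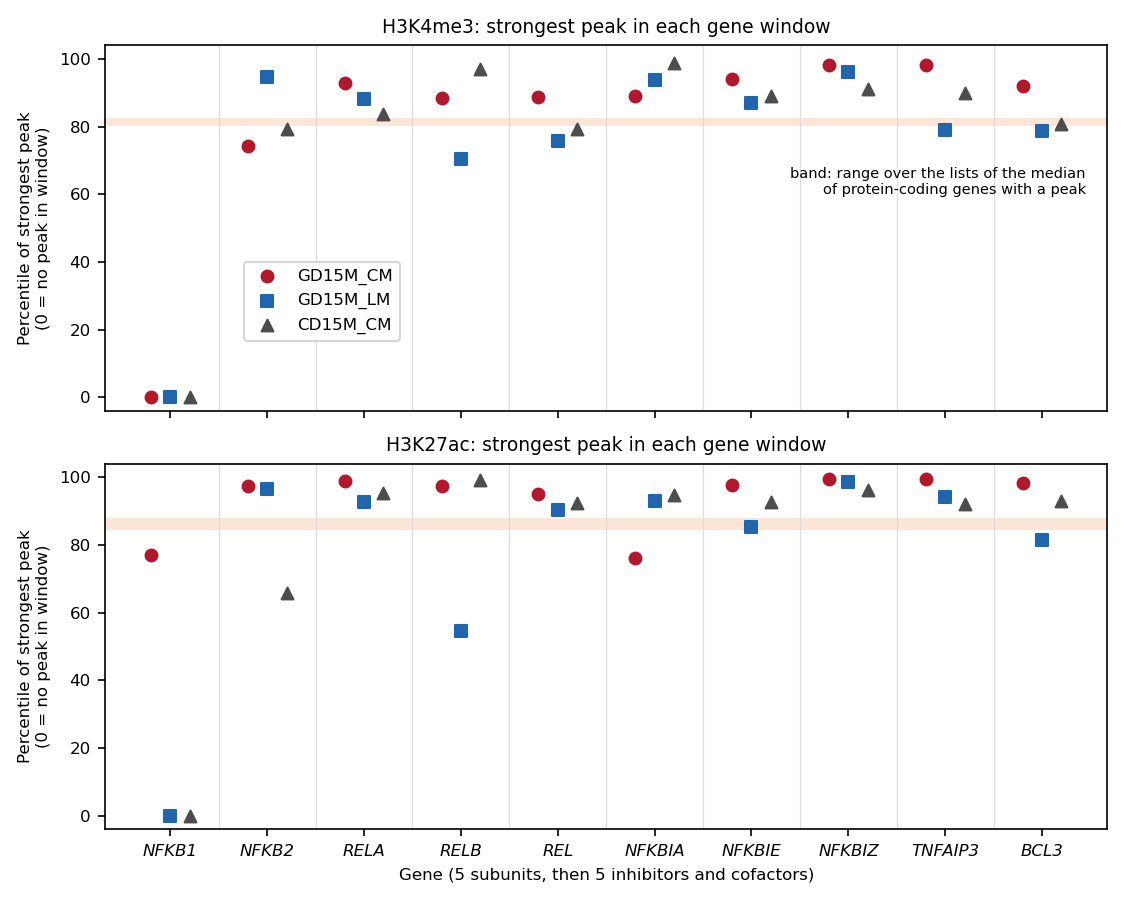
Percentile of the strongest H3K4me3 (top) and H3K27ac (bottom) peak in each gene window, from 0 (no peak) to 100, with 1 point per pooled list and a band that spans the medians of protein-coding genes with a peak over the 3 lists. *NFKB1* lies at 0 for H3K4me3 in all 3 lists and at 76.9 for H3K27ac in GD15M_CM alone, and *RELB* in GD15M_LM and *NFKB2* in CD15M_CM stand below the other H3K27ac points of those genes.

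*RELA* (chr2:6594869-6602684), the subunit with the main activation domain of canonical NF-κB dimers, was marked strongly in every tissue. Its strongest H3K4me3 peak covered the low end of the gene and stood at percentile 92.9 in GD15M_CM, 88.1 in GD15M_LM and 83.7 in CD15M_CM, with fold enrichments of 22.2, 24.3 and 20.5. The peak was 5839, 5611 and 5820 bp long, so its extent hardly differed between tissues. H3K27ac at the same end stood at 98.9, 92.8 and 95.5, with fold enrichments of 8.05, 6.74 and 6.31. None of these differences reached 10 points. Weaker regions of the window did differ, among them an H3K4me3 region over the high end, chr2:6601598-6603392, whose percentile was 10.7 in GD15M_CM, 49.8 in GD15M_LM and 57.2 in CD15M_CM.

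*REL* (chr3:80861862-80912233) encodes c-Rel, the subunit best known from lymphocytes. It had a single H3K4me3 peak in each list, over the high end of the gene, at percentile 88.9 in GD15M_CM, 75.8 in GD15M_LM and 79.3 in CD15M_CM. Fold enrichments were 19.7, 17.6 and 18.02, and lengths 3806, 3413 and 3379 bp, so GD15M_CM was highest by all these measures. GD15M_CM thus ranked 13.1 points above GD15M_LM and 9.57 above CD15M_CM. Both H3K27ac peaks of *REL* lay inside that H3K4me3 region. The one over the gene end, chr3:80911277-80912857, stood at 95.1, 84.1 and 78.7, that is 11.0 and 16.4 points higher in GD15M_CM than in GD15M_LM and CD15M_CM. The other, chr3:80910407-80910871, stood at 94.7, 90.2 and 92.4. The low end of *REL*, where the body of *PUS10* overlaps it, had no peak of either mark.

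*RELB* (chr6:51444670-51480350), a subunit of the non-canonical pathway that pairs with p52, differed most in where its marks lay. H3K27ac over the low end of the gene, at chr6:51444407-51446445, stood at percentile 97.3 in GD15M_CM, 37.0 in GD15M_LM and 4.51 in CD15M_CM. Fold enrichments there were 6.99, 3.46 and 2.37, and the peaks were 2039, 1401 and 1416 bp long. GD15M_CM was therefore 92.8 points above CD15M_CM and 60.3 above GD15M_LM at this end, and the peak of CD15M_CM was among the lowest-ranking of its list. At the high end, chr6:51479415-51482934, the order was another one: 79.5 in GD15M_CM, 54.6 in GD15M_LM and 99.1 in CD15M_CM. That region also reaches *CLASRP*, a gene of RNA splicing that begins 128 bp beyond the end of *RELB*, so its marks cannot be assigned to *RELB* alone.

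For H3K4me3 at *RELB*, GD15M_CM also led at the low end, by smaller differences, and CD15M_CM at the high end. The low-end region, chr6:51441756-51446263, stood at 88.6 in GD15M_CM, 70.3 in GD15M_LM and 77.7 in CD15M_CM, which put GD15M_CM 18.3 and 10.9 points higher. The region shared with *CLASRP*, chr6:51479309-51483814, stood at 72.4, 70.6 and 97.0, with fold enrichments of 12.2, 14.9 and 32.6. When the strongest peak of the whole window was taken, as for all other genes, the peak of GD15M_CM was the one at the low end and those of the other tissues the one next to *CLASRP*. The window values, 88.6, 70.6 and 97.0 for H3K4me3 and 97.3, 54.6 and 99.1 for H3K27ac, thus compare different places.

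*NFKB2* (chr14:113406412-113414177), the source of p100 and p52, had the strongest peaks of both marks at its low end, where a long non-coding RNA overlaps it. H3K4me3 there was highest in GD15M_LM, at percentile 94.7 with a fold enrichment of 29.8. It was at percentile 79.3 in CD15M_CM, with a fold enrichment of 17.96, and at 74.2 in GD15M_CM, with 13.0. The difference of GD15M_CM from GD15M_LM was -20.5 points. H3K27ac did not follow that order: GD15M_CM (97.3) and GD15M_LM (96.5) were close together, and CD15M_CM was at 65.8. The H3K27ac fold enrichments were 7.02, 7.68 and 3.95, and a further region inside the gene, chr14:113410338-113412111, stood at 71.0, 85.1 and 17.96. The high end, 519 bp from *PSD*, had only weak peaks.

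*NFKB1* (chr8:118391010-118478927), the source of p105 and p50, was the only one of the 10 genes without H3K4me3 in its window. Its H3K27ac was limited to 4 small peaks in GD15M_CM, 217 to 476 bp long and at percentiles 61.7 to 76.9, near the high end of the gene body, and no H3K27ac peak lay in the window in GD15M_LM or CD15M_CM. The nearest H3K4me3 peak beyond the high end of the gene model lay 26.5 kb away in GD15M_CM, 26.3 kb in GD15M_LM and 26.4 kb in CD15M_CM, in a search widened after seeing the data. It was 2760, 2908 and 2840 bp long and stood at percentiles 91.9, 85.03 and 88.3, and no RefSeq gene lay within 3 kb of it. H3K27ac at the same place stood at 96.8 in GD15M_CM, 93.0 in GD15M_LM and 45.5 in CD15M_CM. A smaller H3K27ac peak 22.3 kb beyond the gene stood at 38.0 in GD15M_CM and 81.9 in CD15M_CM and was not called in GD15M_LM. The next gene on that side, *SLC39A8*, a metal transporter, begins 126 kb from *NFKB1*. Whether that peak belongs to a transcript of *NFKB1* that the gene model does not include was not tested.

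*NFKBIA* (chr7:64508119-64510754) encodes IκBα, the classical inhibitor that NF-κB itself induces. It was the only gene of the set whose strongest H3K27ac peak ranked at least 10 points lower in GD15M_CM than in both other tissues. Its single H3K4me3 region covered the low end and nearly all of the gene and stood at 89.0 in GD15M_CM, 93.7 in GD15M_LM and 98.8 in CD15M_CM, with fold enrichments of 19.7, 28.7 and 38.0 and lengths of 3662, 3836 and 4333 bp. The difference from CD15M_CM was -9.85 points, just within the threshold. H3K27ac stood at 76.1, 92.8 and 94.7 with fold enrichments of 4.35, 6.75 and 6.11, so GD15M_CM differed by -16.7 points from GD15M_LM and by -18.5 from CD15M_CM. The body of one long non-coding RNA overlaps the low end of *NFKBIA* and another begins 89 bp beyond its high end.

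*NFKBIE* (chr7:39255078-39266085), which encodes IκBε, had H3K4me3 in its interior as well as at its low end. The interior region, chr7:39259894-39263725, stood at 93.8 in GD15M_CM, 87.0 in GD15M_LM and 76.0 in CD15M_CM, a difference of 17.9 points between the circular muscles. H3K27ac inside the same part of the gene, chr7:39259946-39263459, stood at 97.8, 73.0 and 92.6, which was 24.8 points higher in GD15M_CM than in GD15M_LM. The low-end region also reaches *SLC35B2*, a gene that lies 578 bp from *NFKBIE*. Its H3K4me3 stood at 94.1, 77.5 and 89.0, whereas its H3K27ac stood at 57.6 in GD15M_CM against 85.1 in GD15M_LM and 89.5 in CD15M_CM. H3K27ac was thus lower in GD15M_CM than in both other tissues at the end shared with *SLC35B2*, whereas inside the gene it was higher than in GD15M_LM and within 10 points of CD15M_CM. A further H3K4me3 region, at 63.2, 61.9 and 68.9, lay beyond the high end within *TMEM151B*, whose body overlaps that end.

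*BCL3* (chr6:51256033-51264923), whose nuclear protein works with p50 and p52 homodimers, was covered by both marks over most of its length. Its main H3K4me3 region, chr6:51252966-51261738, spanned the low end and stood at 92.0 in GD15M_CM, 78.6 in GD15M_LM and 80.9 in CD15M_CM. GD15M_CM was 13.4 and 11.13 points higher, although the fold enrichments, 21.6, 19.02 and 18.9, lay close together. H3K27ac over the low end was at 98.3 in GD15M_CM, 67.7 in GD15M_LM and 66.1 in CD15M_CM, with fold enrichments of 7.54, 4.44 and 3.98. The next region inside the gene stood at 88.8, 81.5 and 45.1. At the high end CD15M_CM led, with 93.1 against 80.7 in GD15M_CM and 68.7 in GD15M_LM. The strongest H3K27ac peak of the window was the low-end one in GD15M_CM, an interior one in GD15M_LM and the high-end one in CD15M_CM, so the window values of 98.3, 81.5 and 93.1 come from different places.

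*NFKBIZ* (chr13:157261419-157273119) encodes IκBζ, an inducible nuclear cofactor. It was among the most strongly marked genes in all tissues. H3K4me3 over its high end stood at 98.4 in GD15M_CM, 96.3 in GD15M_LM and 91.1 in CD15M_CM, with fold enrichments of 29.4, 31.8 and 25.6. H3K27ac at that end stood at 99.5, 98.7 and 96.2, and the peak had nearly the same length in the 3 lists, 1558, 1585 and 1554 bp. No difference of the strongest peak reached 10 points. H3K4me3 covered 4361 bp of the window in GD15M_CM, 6824 in GD15M_LM and 5791 in CD15M_CM, which made this the only gene whose H3K4me3 coverage was lower in GD15M_CM than in GD15M_LM by the 1.5-fold used for lengths.

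*TNFAIP3* (chr1:26474158-26489771) stood out for the breadth of its marks in pregnant circular muscle. Its H3K4me3 lay over the high end at percentile 98.1 in GD15M_CM, 78.9 in GD15M_LM and 89.95 in CD15M_CM, with fold enrichments of 28.8, 19.2 and 24.8. In GD15M_CM this was 1 peak of 6236 bp that reached well into the gene, whereas peaks covered 3951 bp in GD15M_LM and 3209 bp in CD15M_CM. The H3K4me3 coverage in GD15M_CM was 1.94 times that in CD15M_CM and 1.58 times that in GD15M_LM. H3K27ac covered 5882, 1947 and 3545 bp, 1.66 times CD15M_CM and 3.02 times GD15M_LM. Within the stretch marked by H3K4me3 in GD15M_CM, a region of 998 bp stood at percentile 75.9 in GD15M_CM and had no H3K27ac peak in either other list, and the next one stood at 82.8 in GD15M_CM, at 34.1 in CD15M_CM and without a peak in GD15M_LM. The strongest H3K27ac peak, over the high end, stood at 99.5, 94.0 and 92.2.

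**Figure D2:**
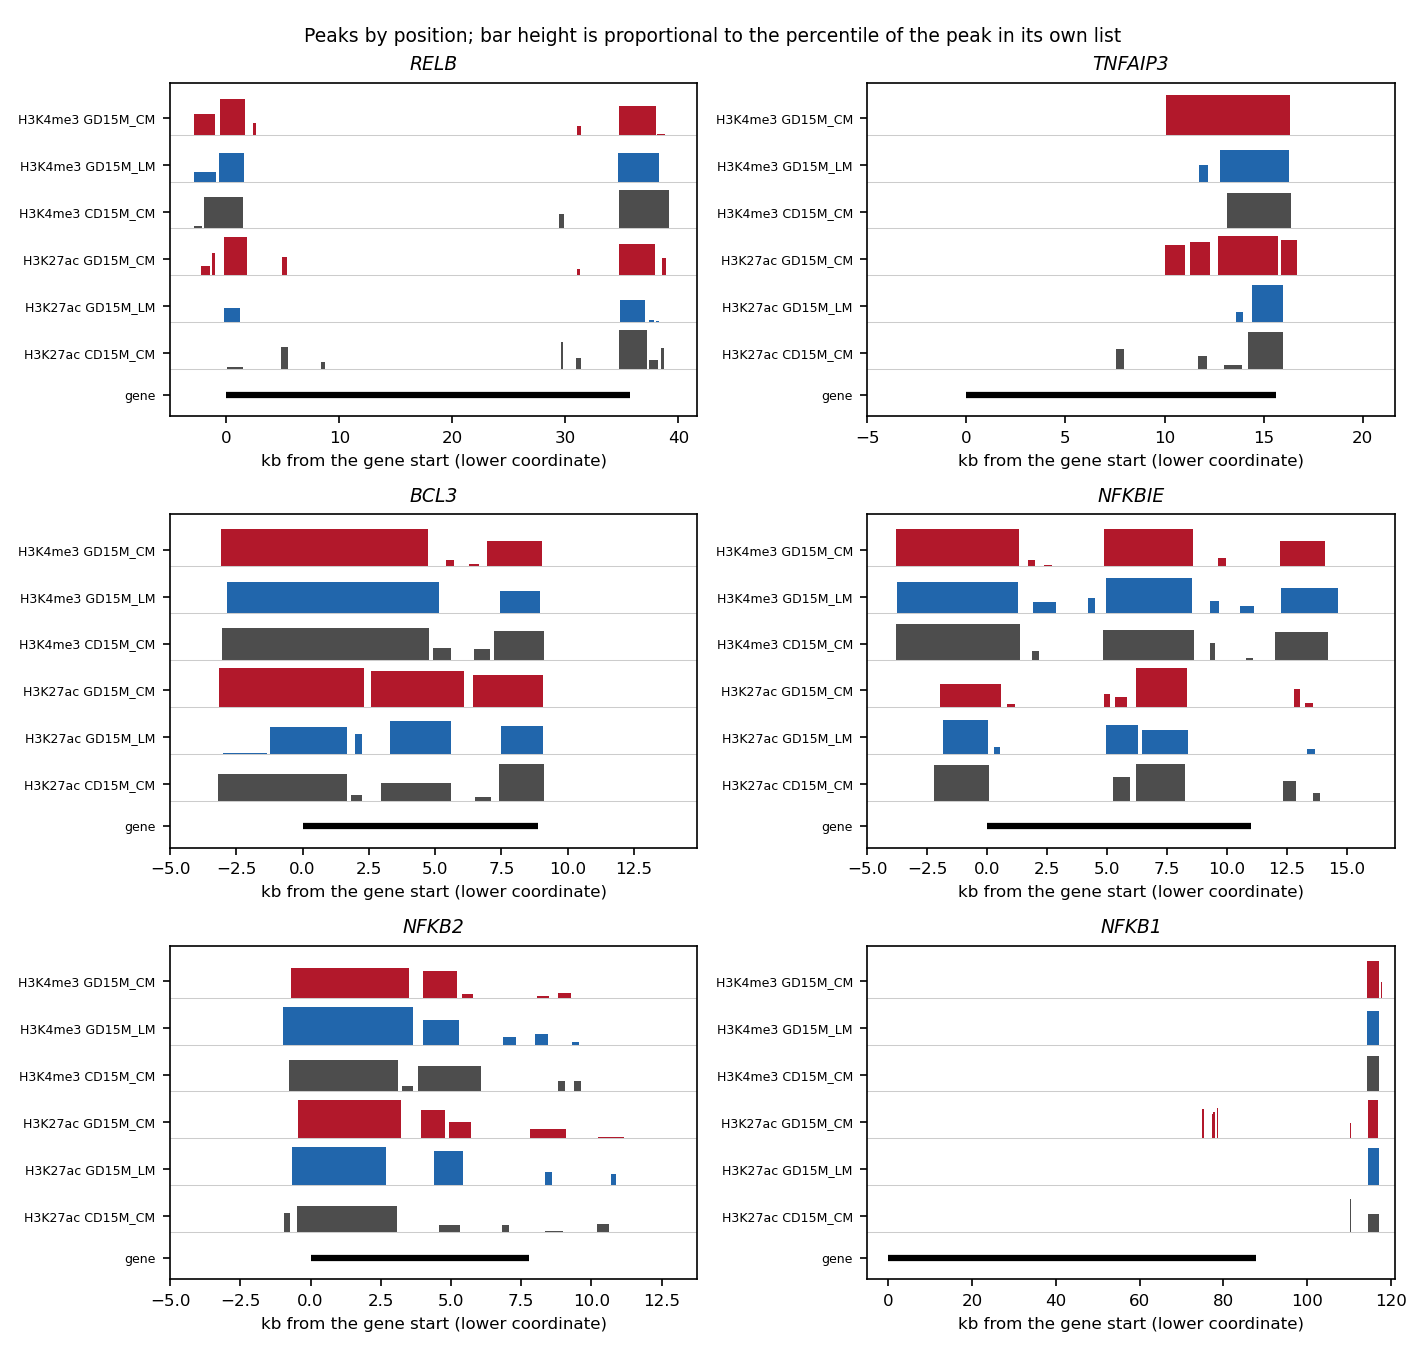
Peaks of both marks in the 3 pooled lists along 6 of the genes, in kb from the lower coordinate of the gene (black bar), with bar height proportional to the percentile of the peak. *TNFAIP3* is covered over 6236 bp by H3K4me3 in GD15M_CM and over 3209 bp in CD15M_CM. H3K27ac at the low end of *RELB* is high in GD15M_CM (97.3) and low in CD15M_CM (4.51). A strong peak lies beyond the *NFKB1* gene body, and whether it belongs to that gene was not tested.

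Pregnant and cyclic circular muscle were compared to see how the marks on these genes differ with pregnancy in 1 layer. For H3K4me3, 1 of 9 genes tested, *BCL3*, ranked at least 10 points higher in GD15M_CM and none ranked lower. Over all RefSeq genes tested, 12.4% ranked higher in GD15M_CM and 23.9% higher in CD15M_CM. The median difference of the 9 genes was 7.30 points, against -2.13 for all genes, and 6 of 9 differences were positive. For H3K27ac, *NFKB1* and *NFKB2* ranked higher in GD15M_CM by 76.9 and 31.5 points and *NFKBIA* ranked lower, out of 10 genes, where 25.5% of all genes ranked higher and 27.4% lower. The median difference was 4.31 points, against -0.15 for all genes. Counted in this way, the genes higher in GD15M_CM are near the background in number and the genes lower are fewer. That reading depends on the scale. A gene above percentile 90 in CD15M_CM cannot rank 10 points higher in GD15M_CM. For H3K27ac, 8 of the 9 genes with a peak in CD15M_CM reached percentile 90 there, against 40.5% of protein-coding genes with a peak. With percentiles taken among genes, 6 of 9 genes ranked higher in GD15M_CM for H3K4me3 and 7 of 10 for H3K27ac, against 24.6% and 31.5% of all genes, and with strict peaks the counts were again 6 and 7, against 25.3% and 41.3%. With equal numbers of peaks, 3 ranked higher for H3K4me3, against 17.1%. Both *NFKB1* calls for H3K27ac, against CD15M_CM and against GD15M_LM, were lost with strict peaks and with windows around the gene ends, where the gene had no peak in any list.

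The same comparison was repeated, after seeing the data, with each gene's highest-ranking region held fixed across the tissues. It then gave *BCL3* higher and *RELB* lower in GD15M_CM for H3K4me3, the latter with a difference of -24.6 points in the region shared with *CLASRP*. For H3K27ac it gave *NFKB1*, *NFKB2*, *REL* and *BCL3* higher, the last by 32.1 points, and *RELB* and *NFKBIA* lower. The *RELB* H3K27ac difference, -19.6 points, was again in the region shared with *CLASRP*, while at the low end of *RELB* GD15M_CM was 92.8 points higher. No share over all genes was computed for a fixed region, in this comparison or between the layers. In both, the region was chosen by its highest percentile in any list, which favours the list that holds that value. At *BCL3* the other H3K27ac regions differed by 43.7 and -12.4 points between the circular muscles, and at *REL* the other one by 2.22. Counted by region, 3 of the 15 H3K4me3 regions of these windows that reached percentile 60 in some list ranked higher in GD15M_CM and 1 in CD15M_CM, against 11.9% and 23.3% of all such regions. Of the 26 such H3K27ac regions, 13 ranked higher in GD15M_CM and 5 in CD15M_CM, against 36.3% and 41.4%. The shares compare regions of the same windows, several to a gene, which are not independent. Among the other cells, 3 of 7 T and NK cell markers ranked higher for H3K4me3 in GD15M_CM (*CD3D*, *CD8A* and *LCK*) and none lower. Among smooth muscle markers, 5 of 8 ranked lower and none higher, and 1 of 7 epithelium markers ranked lower. For H3K27ac, 2 of 4 T and NK cell markers ranked higher and 1 lower, 3 of 8 smooth muscle markers ranked lower and none higher, and 3 of 7 epithelium markers ranked higher and 1 lower. Myeloid markers gave none higher and 2 of 8 lower for H3K4me3, and 3 of 7 higher and 1 lower for H3K27ac. B cell markers gave none higher, with 1 of 2 lower for H3K4me3 and 3 of 4 for H3K27ac. Of the markers of all leukocytes, 1 of 4 ranked higher and none lower for H3K4me3, and 1 of 2 each way for H3K27ac. Their part in the differences at the NF-κB genes was not tested.

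Circular and longitudinal muscle of pregnant gilts were compared to see how the layers differ. For H3K4me3, *RELB*, *REL*, *TNFAIP3* and *BCL3* ranked at least 10 points higher in GD15M_CM and *NFKB2* ranked lower, out of 9 genes. Of all genes tested, 20.9% ranked higher in GD15M_CM and 20.2% in GD15M_LM. The differences of *TNFAIP3* (19.2 points) and *NFKB2* (-20.5) were the largest in each direction, and the median of the 9 was 7.07 points, against 0.40 for all genes. For H3K27ac, *NFKB1*, *RELB*, *NFKBIE* and *BCL3* ranked higher in GD15M_CM, by 76.9, 42.7, 12.7 and 16.8 points, and *NFKBIA* ranked lower, where 33.8% of all genes ranked higher and 22.5% lower. The median difference was 5.84 points, against 2.30 for all genes.

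With the region held fixed, *RELB* no longer passed 10 points for H3K4me3 (1.80) and *NFKBIE* did, and *REL* was added among the genes higher for H3K27ac. By region, 5 of 15 for H3K4me3 ranked higher in GD15M_CM and 1 in GD15M_LM, against 22.3% and 18.6% of all regions that reached percentile 60. For H3K27ac it was 14 and 4 of 26, against 50.7% and 28.4%. All 7 epithelium markers ranked higher in GD15M_CM than in GD15M_LM for both marks. Among smooth muscle markers 4 of 8 ranked lower for H3K4me3 and none higher, and for H3K27ac 3 ranked lower and 2 higher. For H3K27ac, 4 of 7 myeloid markers ranked higher and 1 lower, 2 of 4 T and NK cell markers higher and none lower, and 2 of 3 markers of all leukocytes higher and 1 lower. B cell markers went the other way, with 1 of 3 higher and 2 lower for H3K27ac, and none of 3 higher and 2 lower for H3K4me3. For H3K4me3, 1 of 8 myeloid markers ranked higher and 2 lower, and 2 of 7 T and NK cell markers higher and 1 lower. None of the 4 markers of all leukocytes passed 10 points for H3K4me3 either way. How far cells other than smooth muscle entered the values of the NF-κB genes was not tested. Fewer cells of a type and less signal per cell cannot be told apart in these tissue samples. Both comparisons share the GD15M_CM list, so the genes that ranked alike in both are not 2 separate observations.

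**Figure D3:**
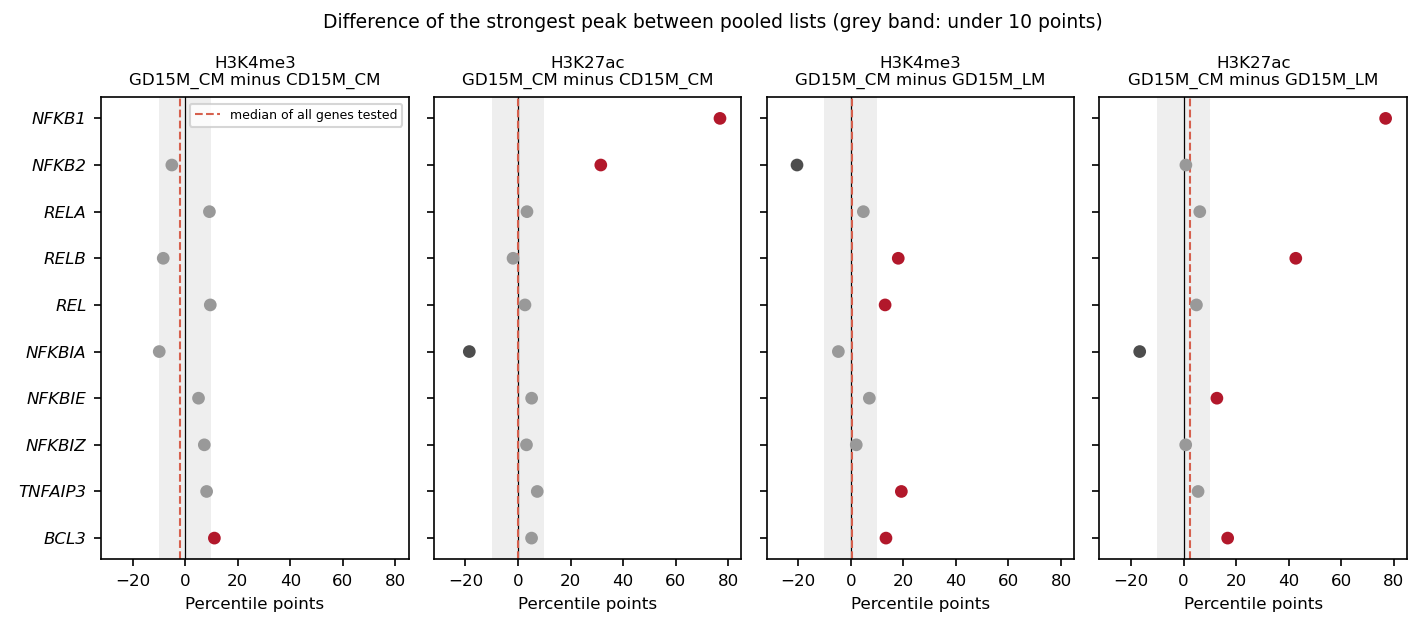
Difference in percentile points of the strongest peak, GD15M_CM minus the other tissue, for each gene, mark and comparison, with red points at 10 or more, dark points at -10 or less and a dashed line at the median of all genes tested. *NFKB1* lies at 76.9 for H3K27ac in both comparisons, *NFKBIA* lies below -10 for H3K27ac in both, and *NFKB2* lies at -20.5 for H3K4me3 between the layers. *NFKB1* is not shown for H3K4me3, where it had no peak.

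GD15M_CM was the highest of the 3 lists for most of the genes, while the order of the other two varied. Of the 9 genes with a peak in all lists, GD15M_CM ranked highest for H3K4me3 in 6, namely *RELA*, *REL*, *NFKBIE*, *NFKBIZ*, *TNFAIP3* and *BCL3*, and for H3K27ac in the same 6 and *NFKB2*. Among protein-coding genes with a peak in all 3 lists, GD15M_CM ranked highest in 30.8% for H3K4me3 and in 37.2% for H3K27ac. *RELB* and *NFKBIA* ranked highest in CD15M_CM for both marks, where 41.5% and 35.4% of protein-coding genes did. For *RELB* the CD15M_CM peaks are those of the region shared with *CLASRP*. At the low end of *RELB*, GD15M_CM was highest for both marks, at 88.6, 70.3 and 77.7 for H3K4me3 and 97.3, 37.0 and 4.51 for H3K27ac. GD15M_LM was highest for H3K4me3 in *NFKB2* only (27.7%) and for H3K27ac in none (27.4%), and it was lowest in 5 of 9 genes for each mark, against 40.6% and 40.1%. GD15M_CM was lowest for H3K4me3 in *NFKB2* and *NFKBIA* (36.7%) and for H3K27ac in *NFKBIA* alone (29.7%). CD15M_CM was lowest for H3K4me3 in *RELA* and *NFKBIZ* (22.7%) and for H3K27ac in *NFKB2*, *NFKBIZ* and *TNFAIP3* (30.2%). This count was made after the values were seen. Several of these differences are small, since GD15M_CM passed the next list by under 10 points for H3K4me3 in every one of the 6 genes except *BCL3*, and for H3K27ac by 0.81 (*NFKBIZ*) to 5.51 points (*TNFAIP3*) in the 7 genes. The ranks within a list can part from the fold enrichments. The percentile was higher and the fold enrichment lower in GD15M_CM than in GD15M_LM for H3K4me3 at *NFKBIE*, *RELA* and *NFKBIZ* and for H3K27ac at *NFKB2*, *REL* and *NFKBIZ*, and likewise against CD15M_CM for H3K4me3 at *NFKBIE*.

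The covered length of a window does not use the fold enrichment. H3K4me3 covered between 3662 bp (*NFKBIA*) and 10784 bp (*NFKBIE*) of the 9 windows in GD15M_CM, and the gene set median over all 10 was 6451, 6941 and 6755 bp in GD15M_CM, GD15M_LM and CD15M_CM, against 3164, 3273 and 3435 bp for protein-coding genes with a peak. Of the 9 genes, only *TNFAIP3* had an H3K4me3 length at least 1.5 times that in CD15M_CM, which 2.14% of all genes with peaks in both lists reached, and none was shorter by it (12.3%). Against GD15M_LM it was again *TNFAIP3* alone, where 4.97% of genes reached 1.5 times, and *NFKBIZ* was shorter by that measure, as were 11.5% of genes. For H3K27ac, *TNFAIP3* passed 1.5 times CD15M_CM (11.7% of genes), and none was shorter by that measure (17.2%). *NFKB2*, *RELB* and *TNFAIP3* passed 1.5 times GD15M_LM with ratios of 1.53, 1.64 and 3.02, where 32.7% of genes did, and none was shorter by it (8.43%). The median H3K27ac ratio of GD15M_CM to GD15M_LM was 1.11 for the 9 genes and 1.25 for all genes.

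**Figure D4:**
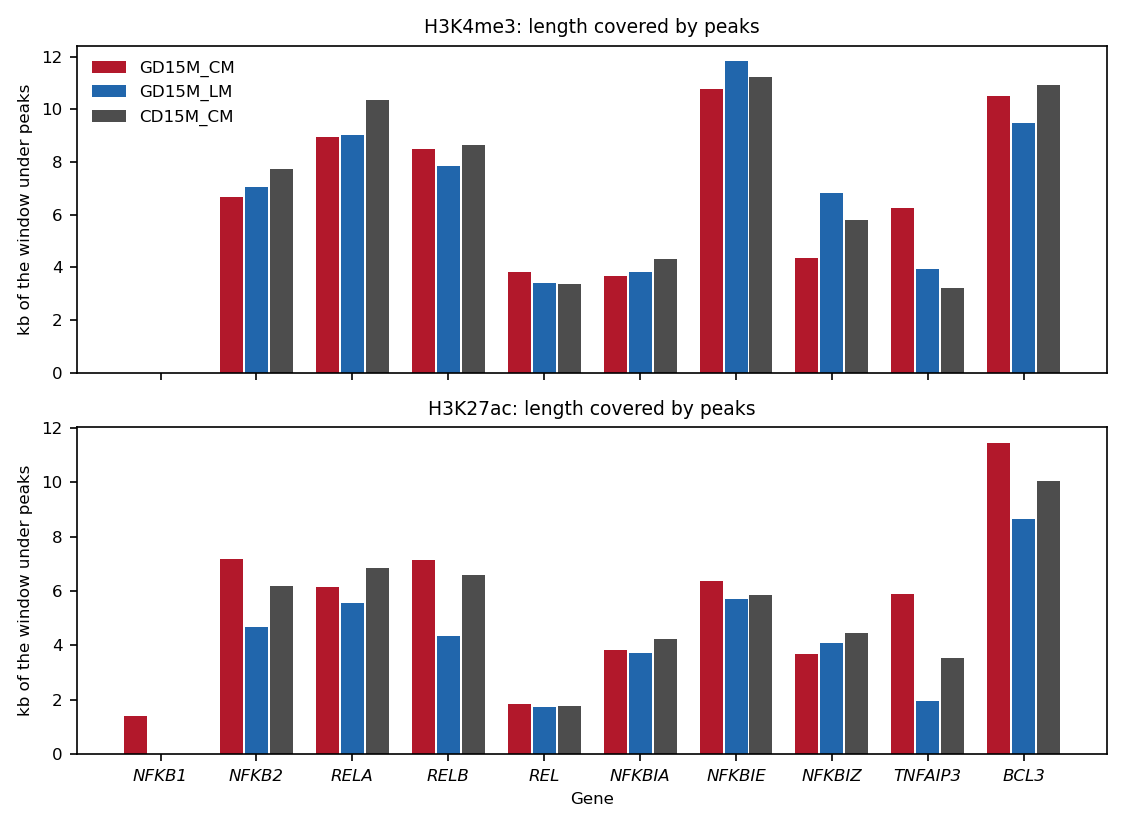
Length of each gene window covered by H3K4me3 (top) and H3K27ac (bottom) peaks in kb, with 1 bar per pooled list and no error bars, since gilts were pooled. *TNFAIP3* is the gene whose GD15M_CM bar is at least 1.5 times the CD15M_CM bar for both marks, and *BCL3* and *NFKBIE* have the longest H3K4me3 coverage.

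The strongest H3K4me3 peak overlapped an end of the gene in 9 of 9 genes in GD15M_CM, 8 of 9 in GD15M_LM and 9 of 9 in CD15M_CM, against 74.5%, 75.2% and 75.5% of protein-coding genes with a peak. The exception was *NFKBIE* in GD15M_LM, whose interior peak was the strongest. For H3K27ac it was 8 of 10, 7 of 9 and 7 of 9, against 52.8%, 57.6% and 51.0%. The strongest peaks of both marks overlapped each other in 8 of 9, 8 of 9 and 7 of 9 genes, against 78.0%, 81.8% and 75.3%, and *NFKBIE* was an exception in all 3 tissues. H3K27ac without H3K4me3, as at enhancers away from promoters, was uncommon in these windows: 8 of 42 peaks in GD15M_CM, 1 of 31 in GD15M_LM and 8 of 43 in CD15M_CM overlapped no H3K4me3 peak of the same tissue. The shares were 19.05%, 3.23% and 18.6%, against 61.1%, 48.8% and 59.9% of the peaks in all protein-coding windows. Long genes add many such peaks, and in protein-coding windows of at most 60 kb, a limit set after seeing the data, the shares were 42.8%, 30.7% and 39.9%. The 4 peaks of *NFKB1* made up 4 of the 8 in GD15M_CM, and the others lay in *NFKBIZ*, *NFKB2* and *RELB*.

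The rest of the pathway was followed with 6 lists of other genes, of which 74 were placed. For H3K4me3 between pregnant and cyclic circular muscle, 8 of 63 tested (12.7%) ranked higher in GD15M_CM and 10 (15.9%) higher in CD15M_CM, and between the layers 11 (17.5%) ranked higher in GD15M_CM and 8 (12.7%) in GD15M_LM. For H3K27ac it was 16 (25.4%) and 17 (26.98%) of 63, and 23 (37.7%) and 11 (18.03%) of 61. These shares lay near the background given earlier or below it. The one furthest above it was that of genes higher for H3K27ac in GD15M_CM than in GD15M_LM (37.7% against 33.8%). Under strict peaks more of these genes ranked lower than higher there, as did all genes (46.8% and 35.3%). *TNF* and *LTB* had the same values in every list, so 1 difference is counted for both genes. The counts of each list below stand beside the background shares of all genes. Against CD15M_CM these were 12.4% higher and 23.9% lower for H3K4me3, and 25.5% and 27.4% for H3K27ac. Against GD15M_LM they were 20.9% and 20.2%, and 33.8% and 22.5%.

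Among the kinases and their activators, 5 of 12 ranked higher for H3K4me3 in GD15M_CM than in GD15M_LM and none lower, led by *TBK1*, an IKK-related kinase, at 93.7 against 72.1. *TAB1*, an activator of the kinase TAK1, was the only one that differed from cyclic muscle, at 86.8 in GD15M_CM and 71.7 in CD15M_CM. For H3K27ac, *CHUK*, which encodes IKKα, stood at 19.6 in GD15M_CM against 81.9 in GD15M_LM and 95.1 in CD15M_CM, the largest difference on this list for that mark. *IKBKG*, the regulatory subunit NEMO, ranked higher in GD15M_CM (57.9) than in CD15M_CM (32.5), and *IKBKB*, which encodes IKKβ, higher than in GD15M_LM (89.9 against 58.9).

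Of the 9 adaptors and ubiquitin enzymes tested, 3 ranked higher for H3K4me3 in GD15M_CM than in CD15M_CM and none lower. *TRAF1* led, at 85.5 against 66.1, while its H3K27ac went the other way, at 62.9 in GD15M_CM against 81.7 in CD15M_CM. *MYD88*, the adaptor of Toll-like and interleukin 1 receptors, ranked higher for H3K27ac (93.0 against 64.5). *BIRC3*, an ubiquitin ligase at TNF receptors, led against GD15M_LM for H3K4me3 (96.7 against 70.2), with *IRAK1* the lowest (65.8 against 75.8). For H3K27ac between the layers *TRADD* was highest (97.7 against 78.9) and *SHARPIN* lowest (52.8 against 81.2).

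The other inhibitors and brakes were mixed, with 2 of 12 higher and 2 lower for H3K4me3 in GD15M_CM against CD15M_CM, and 3 higher and 1 lower for H3K27ac. *CYLD*, a deubiquitinase that ends NF-κB signalling, ranked lower for both marks, at 81.2 against 96.4 for H3K4me3 and 74.9 against 97.9 for H3K27ac. *NKIRAS1* led for H3K4me3 (92.2 against 76.6) and *TNIP2* for H3K27ac (74.0 against 39.3). Between the layers 1 of 12 ranked higher and 1 lower for H3K4me3, *NFKBIB* (70.6 against 59.5) and *OTULIN* (77.8 against 92.0), and 2 and 2 for H3K27ac, with *NFKBID* (98.8 against 78.8) and *NFKBIB* (50.5 against 64.7) at the extremes. The values of *NFKBID* were the same as those of the myeloid marker *TYROBP* in every list, so this difference is also counted among the myeloid markers.

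Of the ligands, *CD40LG*, *IL1A* and *IL1B* had no peak of either mark in any list. *IL33*, an alarmin, had H3K27ac only in GD15M_CM (45.9), and its H3K4me3 stood at 57.9 in GD15M_CM, 10.5 in GD15M_LM and 43.7 in CD15M_CM. *IL18* had no H3K27ac peak in GD15M_CM, against 89.2 in GD15M_LM and 95.2 in CD15M_CM. *LTA* was higher for H3K27ac in GD15M_CM (52.7) than in GD15M_LM (2.98), and *TNFSF11*, which encodes RANKL, had no H3K4me3 peak in GD15M_CM, against 50.7 in GD15M_LM and 18.98 in CD15M_CM. In all, 1 of 7 ligands ranked higher and 1 lower for H3K4me3 in GD15M_CM against CD15M_CM, and 1 and 3 of 6 for H3K27ac.

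No receptor ranked higher for H3K4me3 in GD15M_CM than in CD15M_CM and 4 of 11 ranked lower, with *TNFRSF13C*, the BAFF receptor, at 20.5 against 60.6. H3K27ac at receptors gave 3 higher and 3 lower of 11. *TLR4*, the endotoxin receptor, had the largest difference upward from CD15M_CM, at 88.7 in GD15M_CM, 42.6 in GD15M_LM and 10.7 in CD15M_CM, while its H3K4me3 was at 53.3, 63.1 and 69.0. *TNFRSF11A*, the RANK gene, had the largest one downward, at 19.03, 71.4 and 74.9. Between the layers 6 of 11 receptors ranked higher for H3K27ac in GD15M_CM and 1 lower, led by *IL18R1* at 94.7 against 12.2, which also led for H3K4me3 at 71.8 against 58.5.

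Of the 19 target genes placed, *SELE*, *CCL20*, *CXCL8*, *CSF2* and *MMP9* had no peak of either mark in any list. *CXCL10*, an interferon- and NF-κB-induced chemokine, ranked higher for H3K4me3 in GD15M_CM (62.6) than in CD15M_CM (9.69), and its H3K27ac stood at 61.7 in GD15M_CM and 17.7 in CD15M_CM, with no peak in GD15M_LM. *CCL5*, a T cell chemokine, had H3K27ac only in GD15M_CM (58.2). *VCAM1*, an adhesion molecule, had H3K27ac only in CD15M_CM (62.6). *SOD2*, the mitochondrial superoxide dismutase, ranked lower in GD15M_CM for H3K4me3 (71.0 against 91.0 in GD15M_LM and 87.0 in CD15M_CM), and *PTGS2*, the inducible cyclooxygenase, had H3K27ac at 10.5 in GD15M_CM, 81.1 in GD15M_LM and 42.4 in CD15M_CM. Between the circular muscles, 2 of 13 targets ranked higher and 3 lower for H3K4me3, and 3 and 7 of 14 for H3K27ac.

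**Figure D5:**
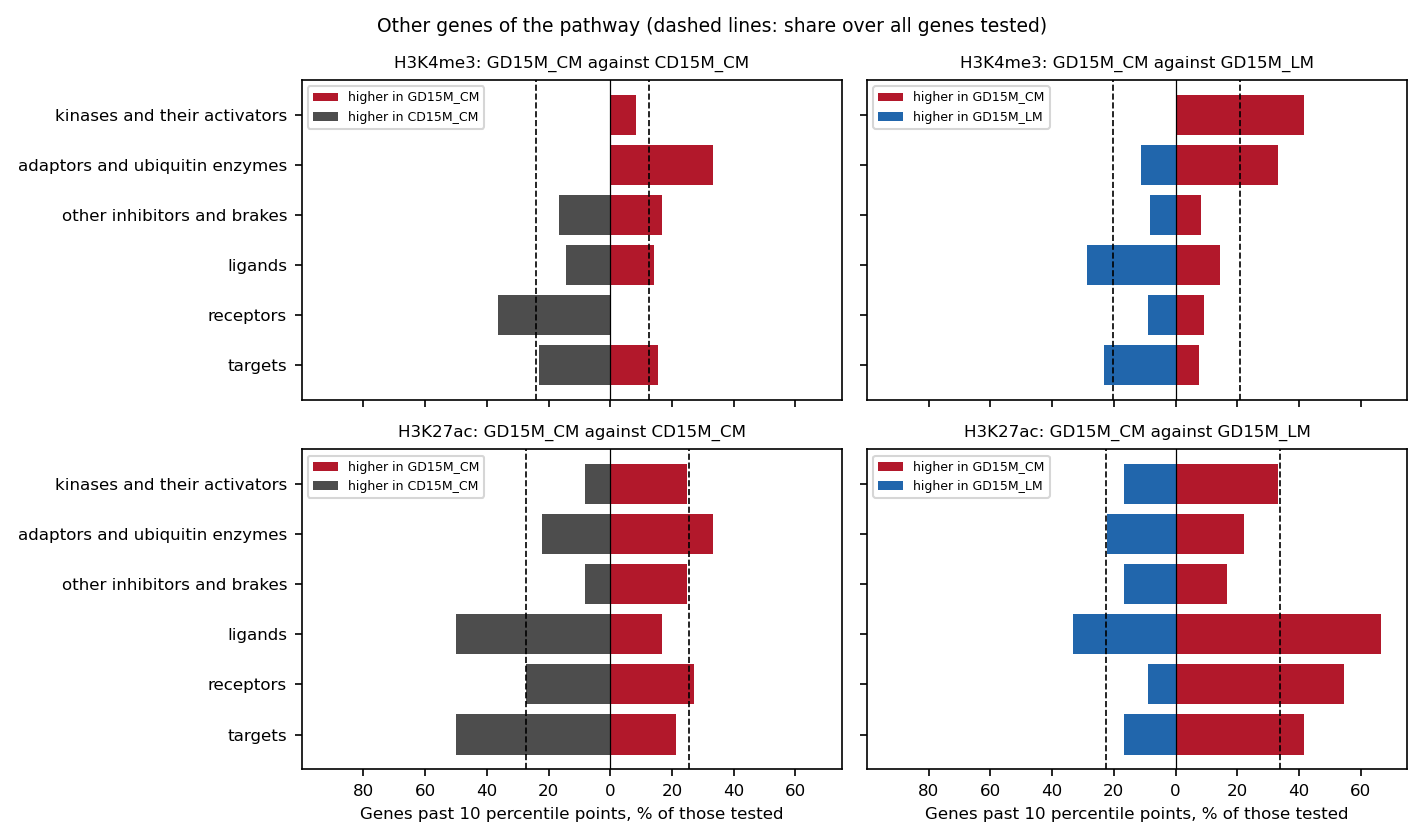
Share of the genes tested on 6 lists of other NF-κB pathway genes that ranked at least 10 percentile points higher in GD15M_CM (right of 0) or in the other tissue (left of 0), by mark (rows) and comparison (columns), with dashed lines at the share over all genes tested. For H3K4me3, 5 of 12 kinases and their activators ranked higher in GD15M_CM than in GD15M_LM and none lower, and 4 of 11 receptors ranked lower in GD15M_CM than in CD15M_CM and none higher.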

How the data were processed

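Sequencing reads of the CUT&Tag libraries were mapped by the authors on Sus scrofa 11.1 (BWA, v0.7.17). Duplicated or poorly mapping reads were taken out (Picard, v2.8.3, with SAMtools, v1.9), both gilts of each group were pooled, and peaks were called against IgG (MACS2, v2.2.6, 3 kb extension regions). The deposited fold enrichment is a ratio over IgG whose scaling is not given in the sources used here. The deposited −log10 p of each peak served only to filter or rank peaks. A further column, which its values show to be close to a −log10 q, has no readable name and was not used. Read depth per library is not held in the lists and was not analysed here, so no counting interval could be given.

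Peaks were placed by an overlap of at least 1 bp with windows around the 28210 RefSeq genes on the numbered chromosomes, X and Y (Sscrofa11.1, gene table without strand), using Python 3.11.15, pandas 2.3.3 and NumPy 2.4.6, and figures were drawn with Matplotlib 3.10.9. A difference was computed for genes with a peak in at least 1 of both lists. Regions join peaks of 1 mark that overlap across the tissues and were added after seeing the data. The code was tested on simulated data. Groups were taken from the sample labels.

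Named genes were all 10 genes, the gene of each pathway list with the largest difference in each direction per mark and comparison if it reached 10 points, and genes next to or overlapping the windows. The members and lists were chosen with earlier results of these data known, and genes at 0 in every list and some markers were named after their values were seen. *TRAF2*, *TRAF3*, *BIRC2*, *RNF31*, *TNFAIP2* and *ZAP70* were not placed by symbol. Sequences, and the planned search for the κB motif, were not analysed here. Alternatives were strict peaks (a −log10 p from 10 upward together with a fold enrichment from 5 upward), other windows, ranking by −log10 p, equal numbers of peaks per mark, percentiles among genes, thresholds of 5 and 20 points, joining of nearby peaks and H3K4me3 of any tissue.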

Additional observations from a re-analysis of the deposited data

How the results depend on the processing

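No paired analysis was possible because the peaks were called on pooled gilts, so the results come from no test, and for the same reason no replicate could be left out. Other settings for the κB motif were not run, since no sequence was used here. Of 230 summary values recomputed under another setting, 164 stayed within their limit (1.5 times for counts) and 66 moved. The cause was not tested. The 14 differences called at single genes kept their sign under each of 7 other settings of peaks, windows and ranks that gave a value. Both *NFKB1* H3K27ac calls were lost under strict peaks and under windows around the gene ends, which left it no peak, and held under the other 5. The rest stayed past 10 points except under 1 setting each for *NFKBIA* H3K27ac (-8.16 against CD15M_CM, -8.82 against GD15M_LM) and *RELB* H3K4me3 against GD15M_LM (4.40).

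Strict peaks moved the most. The median percentiles of the 10 genes fell to 79.7, 67.2 and 69.8 for H3K4me3 and to 80.1, 57.1 and 42.5 for H3K27ac, in the order GD15M_CM, GD15M_LM and CD15M_CM. The median H3K27ac coverage fell to 2086, 1830 and 2124 bp, H3K27ac peaks without H3K4me3 numbered 0 in each tissue, and the *NFKB2* H3K27ac length ratio of GD15M_CM to GD15M_LM turned from 1.53 to 0.85. Against CD15M_CM, 6 genes ranked higher and 2 lower for H3K4me3 (25.3% and 34.4% of all genes), and 7 and 2 for H3K27ac (41.3% and 39.9%). For H3K4me3 against GD15M_LM, *RELB* (32.3 points), *REL* (22.8), *NFKBIE* (12.3), *BCL3* (24.1) and *TNFAIP3* ranked higher (27.4% of all genes) and 2 lower (34.8%). On the pathway lists, 21 ranked higher and 16 lower for H3K4me3 against CD15M_CM, 19 lower against GD15M_LM, and 13 higher and 21 lower for H3K27ac against GD15M_LM, where 35.3% and 46.8% of all genes did. The number of pathway genes tested is not given here for strict peaks or for equal numbers of peaks. Those pathway counts can therefore not be turned into shares.

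Percentiles taken among genes gave the same 6 and 2 and 7 and 2 genes in number against CD15M_CM (24.6% and 29.3%, and 31.5% and 36.1%, of all genes). For H3K4me3 against GD15M_LM, *RELB* (36.9 points), *REL* (27.4), *BCL3* (29.8), *NFKBIE* (16.2), *RELA* (10.3) and *TNFAIP3* ranked higher (27.4% of all genes) and 2 lower (29.6%). On the pathway lists these percentiles gave 20 higher for H3K4me3 against CD15M_CM. Against GD15M_LM they gave 16 (H3K4me3) and 19 (H3K27ac) lower, where 29.6% and 33.2% of all genes ranked lower. Equal numbers of peaks gave 3 genes higher and 1 lower for H3K4me3 against CD15M_CM (17.1% and 21.6% of all genes), 6 pathway genes lower there, and 19 lower for H3K27ac against GD15M_LM, where 26.5% of all genes then ranked higher and 32.6% lower. Ranking by −log10 p gave 1 gene lower for H3K4me3 against CD15M_CM and 0 lower for H3K27ac in both comparisons, where 15.6%, 21.6% and 15.3% of all genes ranked lower. It gave 5 pathway genes higher and 3 lower for H3K4me3 against CD15M_CM (6.06% and 15.6% of all genes) and 4 lower against GD15M_LM (13.6%).

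A threshold of 20 points left 0 genes higher for H3K4me3 against CD15M_CM and GD15M_LM (3.38% and 7.46% of all genes), 2 higher for H3K27ac against GD15M_LM (21.5%) and 0 lower for H3K27ac in both (17.6% and 14.2%). On the pathway lists, with 63 genes tested (61 for H3K27ac between the layers), it left 1 higher and 1 lower for H3K4me3 against CD15M_CM (3.38% and 8.99% of all genes). Against GD15M_LM it left 3 and 2 (7.46% and 8.44%). For H3K27ac it left 9 and 10 against CD15M_CM (15.5% and 17.6%), and 14 and 7 against GD15M_LM (21.5% and 14.2%). A threshold of 5 points gave 6 genes higher and 3 lower for H3K4me3 (23.1% and 38.9% of all genes) and 5 higher for H3K27ac (34.8%) against CD15M_CM. On the pathway lists it gave 20 and 18 for H3K4me3 against CD15M_CM, and 19 and 17 against GD15M_LM (33.9% and 31.9% of all genes). For H3K27ac, 17 ranked lower against GD15M_LM (29.9%). Windows around the gene ends left 1 gene, *NFKB2*, higher for H3K27ac against CD15M_CM (28.1% of all genes). The same region in all lists, added after seeing the data, gave 1 lower for H3K4me3 and 4 higher and 2 lower for H3K27ac against CD15M_CM. No share over all genes was computed for that setting, whose region was chosen by the same values. With H3K4me3 of any tissue, 5 H3K27ac peaks of CD15M_CM were without it.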

Other observations

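H3K27ac peaks without H3K4me3 were also counted from 3 kb to 50 kb on either side of each gene. *NFKBIA* had 14, 5 and 8 such peaks in GD15M_CM, GD15M_LM and CD15M_CM, where the median protein-coding gene had 2, 1 and 2. Most of those around *NFKBIA* ranked low, with median percentiles of 24.7, 28.9 and 41.6, and the strongest stood at 70.1, 92.0 and 77.3. *BCL3* had 10, 3 and 5 such peaks. *NFKBIZ* had 2 in GD15M_CM, 4 in GD15M_LM and 9 in CD15M_CM, with the strongest at 72.7, 70.2 and 80.3, so its count ran in the other direction from that of *BCL3* between the circular muscles. *REL* had none in any list. The number of peaks in a list differs between the tissues, and these counts have no replicate.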
